A study of Cricetulus griseus with 16 samples.

Results

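The genes described here encode the aminoacyl-tRNA synthetases, and they were chosen by symbol alone: a gene name made of an amino acid letter followed by ARS, with the usual variants for glutamyl-prolyl (EPRS), glutamyl (Ears2), phenylalanyl (Farsa, Farsb, Fars2) and mitochondrial prolyl (Pars2) enzymes. This rule matched 36 of the 20824 genes in the count table. Of these 36 genes, 19 encode cytosolic enzymes and 17 encode mitochondrial enzymes. No gene in the count table bore a symbol of the cytosolic asparaginyl enzyme that the rule covers. The rule does not cover the threonyl-like gene TARSL2, and neither gene was analysed here. All 36 genes passed the filter on low counts in each comparison, with between 74 and 8898 reads per gene and library.

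An aminoacyl-tRNA synthetase joins an amino acid to its tRNA, the step that gives the genetic code its meaning. Mammalian cells keep separate enzymes for the cytosol and for the mitochondrion, all of them encoded in the nucleus, while glycyl (Gars) and lysyl (KARS) synthetases serve both compartments. Several cytosolic enzymes are held together in the multi-tRNA synthetase complex, and the genes of many cytosolic enzymes are targets of ATF4, a transcription factor of amino acid and unfolded protein stress.

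RNA was sequenced from CHO cells (ATCC CCL-61), a cultured line of Chinese hamster ovary origin. The control group stayed at 37 °C without treatment. Other groups were kept at 40 °C, for 1 h or for 6 h, and the last group spent 1 h at 42.5 °C. The labels name no genetic change and no other agent in any group. Each group had 4 biological repeats of this line, named replicates A to D. The comparisons ask how mild, fever-like heat of short or long duration differs from a moderate heat shock.

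The 16 libraries held between 10504192 and 14668365 counted reads, of which the synthetase genes took 0.523% to 0.583%. Replicate D at 37 °C stood apart, with a correlation of log2 levels of 0.976 to 0.978 with the other 3 controls against 0.997 among those 3. It was left out of the tests, since the study left out 1 control sample and its counts do not appear in the study's supplementary list, and results were also computed with all 4 controls. The heat shock genes Hspb1 and Dnajb1 were higher in every heated group than in the other 3 controls, with log2 fold changes of 1.11, 1.53 and 2.98 for Hspb1 and 1.63, 0.65 and 3.79 for Dnajb1 after the short and the long heating at 40 °C and at 42.5 °C, in this order. With all 4 controls neither gene passed after 1 h at 40 °C (adjusted p = 0.408 for Hspb1 and 0.114 for Dnajb1). Among markers of cell type, the mesenchymal genes Vim and Fn1 were abundant in all libraries, while Col1a1 and Col1a2 of the same list had 0 to 4 reads. Of 4 granulosa genes, Fshr, Foxl2 and Cyp19a1 had 0 reads and Amh had 24 to 90 reads per library. The epithelial Cdh1 had 20 to 48 reads, Epcam and the leukocyte gene Ptprc had 0 to 1, and the endothelial Cdh5 and Pecam1 had 0 to 4.

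Throughout, a level is a normalised read count in CPM, the count scaled to the size of its library, with TMM factors, a difference is the log2 fold change with its standard error, and a gene passed the test when its adjusted p was under 0.05. A CPM is a share of the RNA in a library, so fewer cells with a transcript and less of it per cell cannot be told apart. CPM values are not scaled by gene length, and levels are compared within a gene or as a sum over the same genes. The part of a gene in such a sum is a part of its reads, not of its transcripts.

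Heating at 42.5 °C for 1 h gave the largest single changes among the synthetase genes, both in mitochondrial enzymes. Of the 17 mitochondrial genes, 8 fell, among them Aars2, Hars2, Lars2, Mars2, Pars2, Sars2 and Vars2, and 1 rose (Iars2). Of the 19 cytosolic genes, 5 rose (Farsb, Gars, KARS, Lars and RARS) and 3 fell (Mars, Qars and Vars). In all, 6 of 36 genes rose, where 20.8% of all tested genes did so, and 11 fell, where 22.3% of all tested genes did so. Pars2 and Aars2 changed by 1.5-fold or more, 2 of 36 genes against 7.51% of all tested genes.

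**Figure D1:**
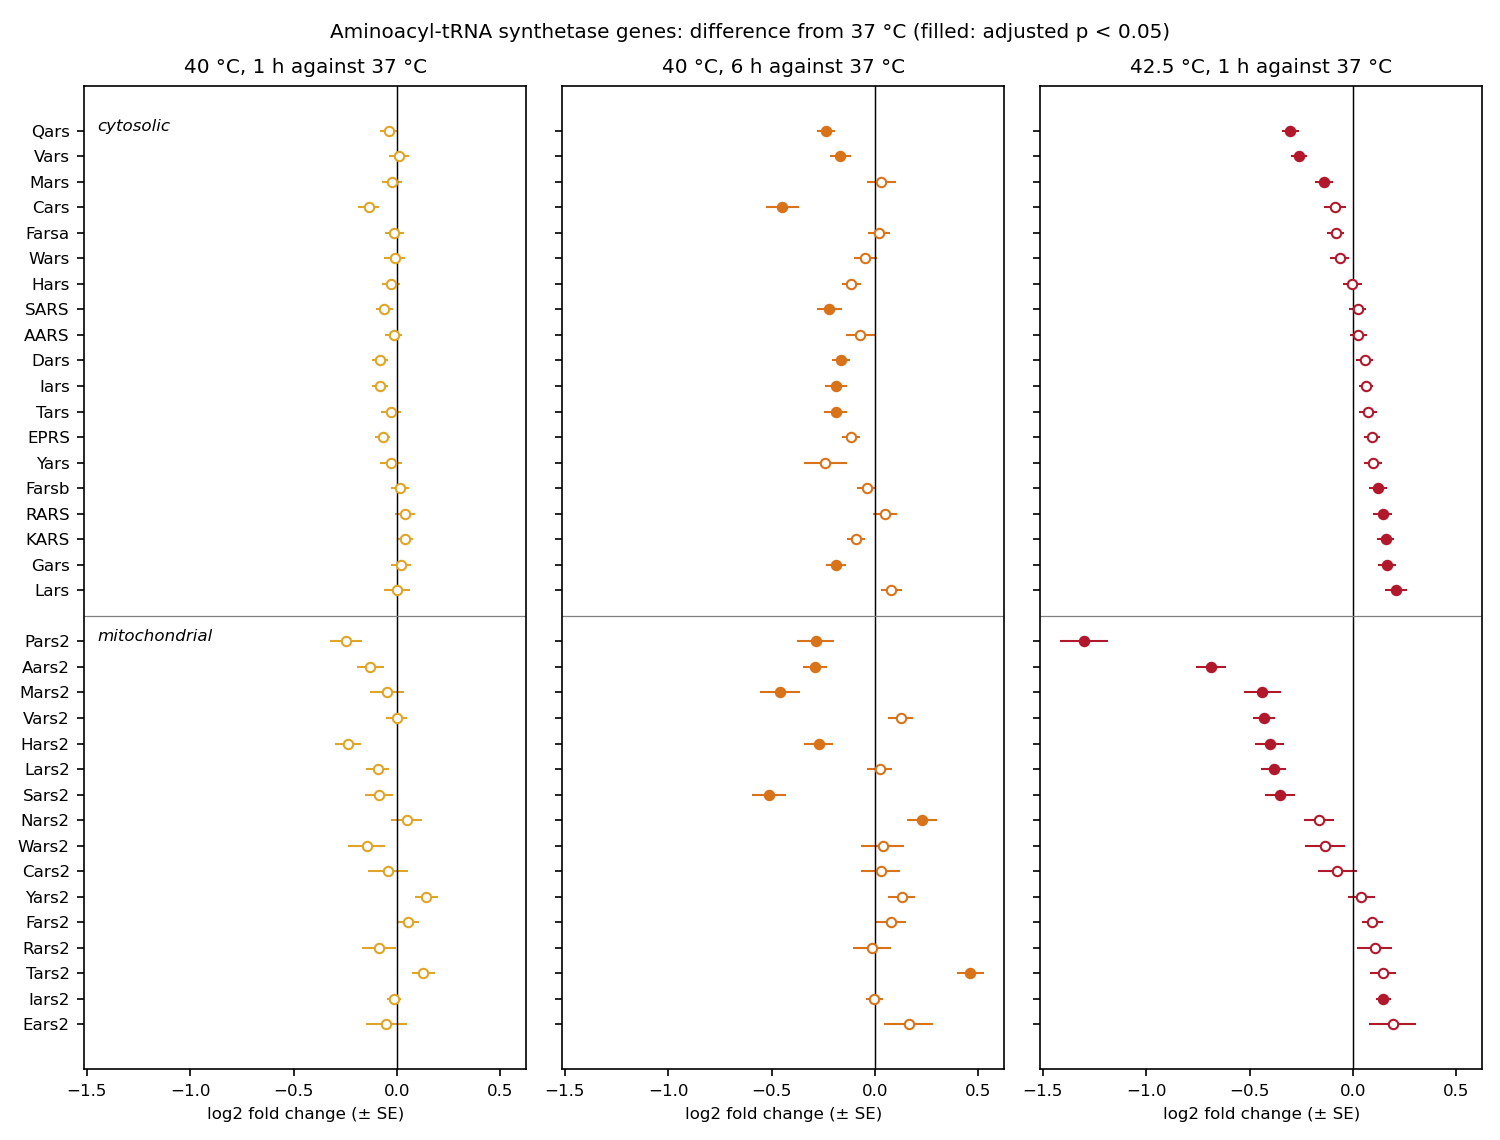
Log2 fold change (± SE) of 35 synthetase genes against 37 °C, in 1 panel per heated group, with cytosolic genes above and mitochondrial genes below the grey line. Filled points passed the test, 0 genes in the left panel, 15 in the middle and 16 in the right panel. Pars2, at -1.30, lies farthest from 0.

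Pars2, the mitochondrial prolyl-tRNA synthetase, showed the largest difference of the family. Its level was 21.8, 20.9 and 23.9 CPM in replicates A, B and C at 37 °C. In the cells heated at 42.5 °C it was 8.94, 8.58, 7.17 and 11.1 CPM. Every library at 42.5 °C lay below every other library of the study. The log2 fold change was -1.30 ± 0.12 (SE, adjusted p = 5.62e-07), which is a level 0.406 times that at 37 °C. At 40 °C the gene lay between these groups, at 19.03, 19.5, 17.9 and 18.2 CPM after 1 h and 20.9, 17.4, 17.9 and 16.8 CPM after 6 h. The difference of 42.5 °C from both 40 °C groups passed the test as well, at -1.05 ± 0.11 against 1 h (adjusted p = 3.31e-06) and -1.02 ± 0.12 against 6 h (adjusted p = 3.16e-06). The difference of -0.29 ± 0.09 at 40 °C for 6 h passed by a small margin (adjusted p = 0.0238) and was lost without replicate A or C at 37 °C or without replicate B, C or D at 40 °C for 6 h, whereas the difference at 42.5 °C held in all 14 alternatives.

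Aars2, the mitochondrial alanyl-tRNA synthetase, was the other gene past 1.5-fold. Its level was 67.4, 61.7 and 69.2 CPM at 37 °C, and 47.1, 39.1, 42.1 and 36.8 CPM at 42.5 °C. The 2 groups did not overlap, and the log2 fold change was -0.69 ± 0.07 (adjusted p = 2.87e-06). Between them lay the cells heated at 40 °C, with 61.7, 66.7, 55.1 and 57.7 CPM after 1 h and 56.0, 52.3, 55.8 and 52.7 CPM after 6 h. The 6 h group lay below all controls (-0.29 ± 0.06, adjusted p = 0.00137), while the 1 h group overlapped with them (-0.13 ± 0.07, adjusted p = 0.372). In the RefSeq annotation of another hamster assembly Aars2 overlaps Ank2, an ankyrin gene, whose own difference at 42.5 °C was 0.09 (adjusted p = 0.268).

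Vars2, the mitochondrial valyl-tRNA synthetase, fell at 42.5 °C and did not pass the main test at 40 °C. Its level was 91.0, 86.4 and 95.8 CPM at 37 °C against 69.8, 66.6, 71.2 and 64.1 CPM at 42.5 °C. These ranges were apart, with a log2 fold change of -0.43 ± 0.05 (adjusted p = 1.45e-05). At 40 °C it was 92.2, 91.7, 94.7 and 85.1 CPM after 1 h, and 93.8, 104, 108 and 92.4 CPM after 6 h, overlapping with the controls in both groups. The direct comparison of 42.5 °C with 40 °C for 6 h gave -0.56 ± 0.06 (adjusted p = 1.06e-06), the smallest adjusted p of any synthetase gene in that comparison. Lcp1, which overlaps Vars2 in that annotation, had no more than 34 reads in any library.

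Hars2, the mitochondrial histidyl-tRNA synthetase, was lower than at 37 °C in every heated group. It stood at 32.3, 31.1 and 32.2 CPM in the controls and at 28.3, 26.4, 27.1 and 26.3 CPM after 1 h at 40 °C. It stood at 26.8, 24.4, 27.0 and 27.6 CPM after 6 h at 40 °C and at 26.4, 24.1, 24.4 and 22.2 CPM after 1 h at 42.5 °C. No heated library reached the lowest control. The log2 fold changes were -0.24 ± 0.06, -0.27 ± 0.07 and -0.40 ± 0.07, and the last 2 passed the test (adjusted p = 0.0729, 0.00749 and 0.000351). Hars2 and Hars, its cytosolic counterpart, overlap each other in the RefSeq annotation. Where strand is not stated, reads within the overlap cannot be assigned to either gene with certainty. Hars itself did not pass in any of the 6 comparisons.

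Sars2, the mitochondrial seryl-tRNA synthetase, fell at 42.5 °C and in the 6 h group at 40 °C. Its level was 27.4, 25.5 and 25.4 CPM at 37 °C and 24.5, 24.9, 25.7 and 23.3 CPM after 1 h at 40 °C. After 6 h at 40 °C it was 18.0, 20.03, 18.8 and 16.5 CPM, and at 42.5 °C it was 20.1, 21.2, 19.97 and 20.8 CPM. Both of these groups lay below all libraries at 37 °C and at 40 °C for 1 h. The differences from 37 °C were -0.51 ± 0.08 after 6 h at 40 °C (adjusted p = 0.000236) and -0.35 ± 0.07 at 42.5 °C (adjusted p = 0.001), and the direct comparison of these 2 groups did not pass (0.16 ± 0.08, adjusted p = 0.12).

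Mars2 (-0.44 ± 0.09) and Lars2 (-0.38 ± 0.06), the mitochondrial methionyl and leucyl enzymes, fell at 42.5 °C too. With replicate D among the controls neither passed, at -0.29 (adjusted p = 0.252) for Mars2 and -0.26 (adjusted p = 0.189) for Lars2. That library held 19.3 CPM of Mars2 and 34.8 CPM of Lars2. Iars2, the mitochondrial isoleucyl-tRNA synthetase, went the other way and rose by 0.15 ± 0.04 (adjusted p = 0.00378), a call that held in all 14 alternatives. The other 8 mitochondrial genes did not pass the test at 42.5 °C, with differences between -0.16 (Nars2) and 0.19 (Ears2).

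**Figure D2:**
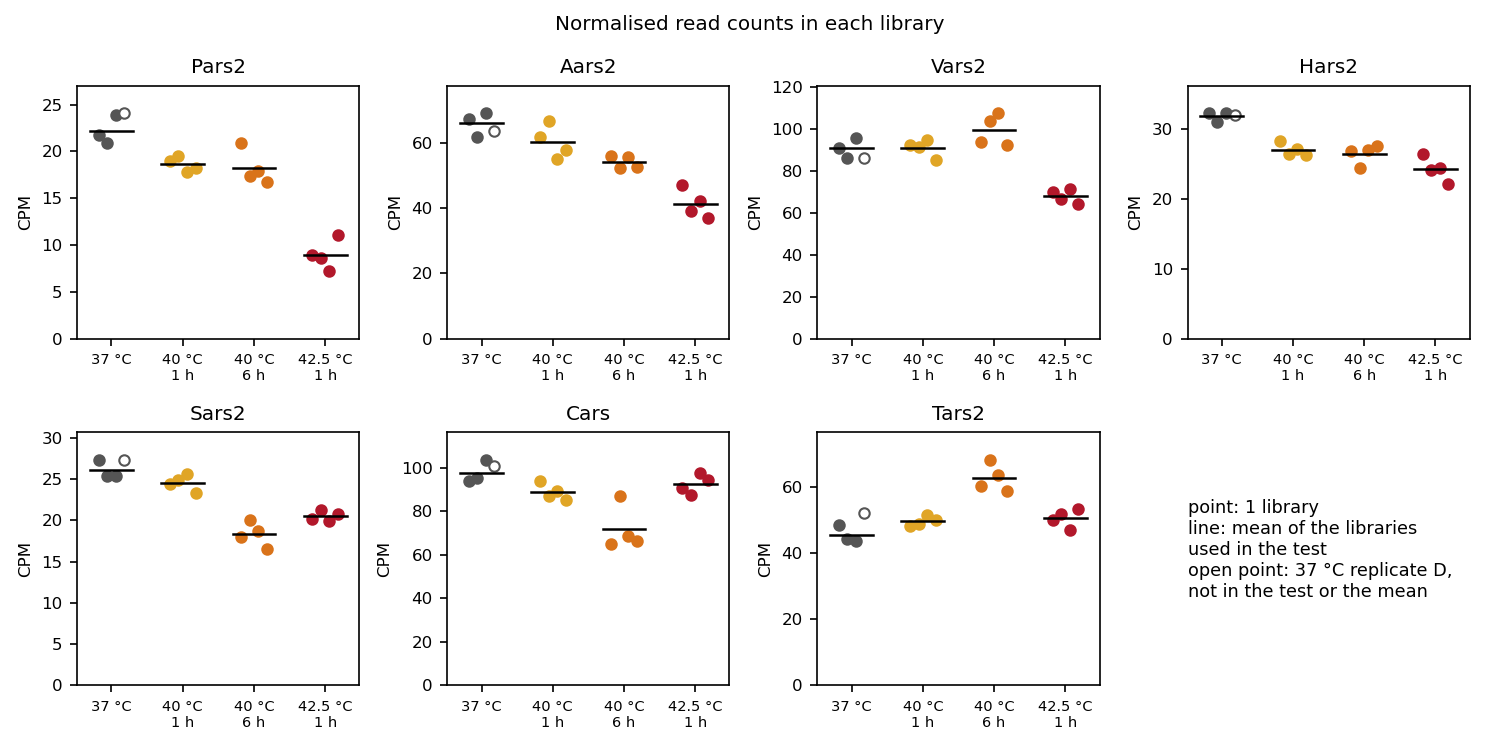
Normalised read count (CPM) of 7 synthetase genes in each of the 16 libraries, with 1 panel per gene and a vertical axis from 0. Points are libraries, black lines are the means of the libraries tested, and open points are replicate D at 37 °C. Pars2, Aars2 and Vars2 are lowest at 42.5 °C, Sars2 and Cars are lowest at 40 °C for 6 h, and Tars2 is highest there.

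Among cytosolic genes, the rises at 42.5 °C were small. They were 0.21 ± 0.05 for Lars (leucyl), 0.17 ± 0.04 for Gars, 0.16 ± 0.04 for KARS, 0.14 ± 0.05 for RARS (arginyl) and 0.12 ± 0.04 for Farsb, the beta subunit of the phenylalanyl enzyme. In each of these genes all 4 heated libraries lay above controls A to C, as in 23.1% of all tested genes. None of the 5 passed with all 4 controls, where Lars was at 0.18 (adjusted p = 0.0816) and the other 4 genes lay between 0.06 (RARS) and 0.09 (Farsb). In that fit 1895 of all genes passed, against 4510 without replicate D. Replicate D had levels of 132 CPM for Lars, 468 CPM for Gars, 728 CPM for KARS, 195 CPM for RARS and 171 CPM for Farsb, inside or above the range at 42.5 °C except for Lars, where it lay just below it. The Farsb and RARS calls were also lost without replicate A or B at 37 °C, and the Farsb call without replicate B or D at 42.5 °C.

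The cytosolic genes that fell at 42.5 °C were Qars (-0.30 ± 0.04, adjusted p = 2.89e-05), Vars (-0.26 ± 0.04, adjusted p = 9.94e-05) and Mars (-0.14 ± 0.04, adjusted p = 0.0192), the glutaminyl, valyl and methionyl enzymes. Qars and Vars held in all 14 alternatives, while Mars was lost in 6 of them, among these without replicate A or B at 37 °C and without replicate B or C at 42.5 °C. Mars overlaps Ddit3, the gene of the stress factor CHOP, in the RefSeq annotation, and Ddit3 was at 0.44 (adjusted p = 0.12) in the same comparison. Valine and methionine were the amino acids whose cytosolic and mitochondrial genes both fell.

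For 13 amino acids the table holds a single cytosolic and a single mitochondrial gene of that amino acid alone. In these pairs the compartments can be set side by side. EPRS, which serves glutamate and proline, and the phenylalanyl genes were left out of these pairs. EPRS was at 0.09 and Pars2 at -1.30 at 42.5 °C, a wider gap than in any of the 13 pairs. At 42.5 °C the mitochondrial gene had the lower log2 fold change in 10 of the 13 pairs, and the exceptions were Cars2, Iars2 and Tars2. The median of the mitochondrial minus the cytosolic difference was -0.17. Among the 13 pairs the widest gap was that of the alanine pair, at -0.71, with AARS at 0.03 and Aars2 at -0.69. It was followed by the leucine pair, at -0.59, in which Lars rose and Lars2 fell. Over all genes of each compartment, the median log2 fold change at 42.5 °C was 0.06 for the cytosolic and -0.16 for the mitochondrial genes, beside -0.0017 over all genes tested.

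**Figure D3:**
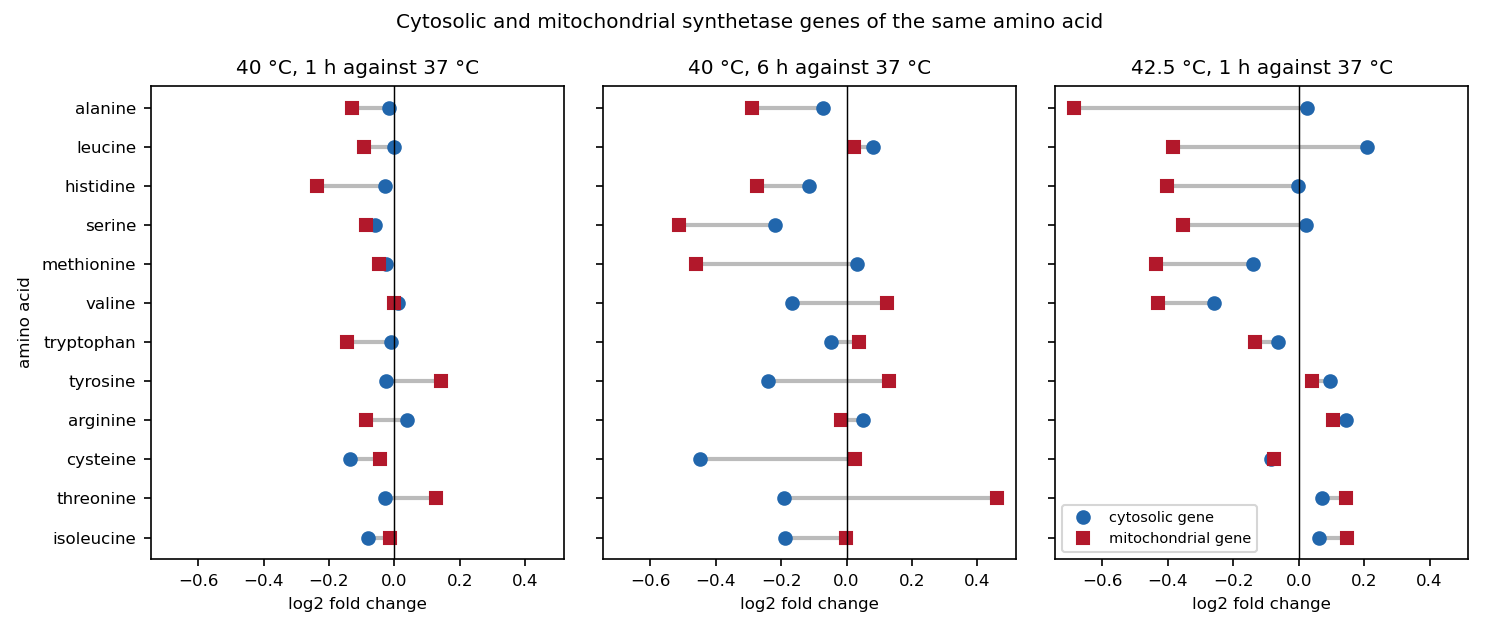
Log2 fold change against 37 °C of the cytosolic (blue circles) and the mitochondrial (red squares) synthetase gene of 12 amino acids, with 1 panel per heated group and rows ordered by the gap at 42.5 °C. The mitochondrial gene lies to the left in 8 of these pairs after 1 h at 40 °C, in 6 after 6 h and in 9 at 42.5 °C.

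Heating at 40 °C for 6 h lowered genes of both compartments. Of the 19 cytosolic genes 8 fell (Cars, Dars, Gars, Iars, Qars, SARS, Tars and Vars) and none rose. Of the 17 mitochondrial genes 5 fell (Aars2, Hars2, Mars2, Pars2 and Sars2) and 2 rose (Nars2 and Tars2). In all, 13 of 36 genes fell, or 36.1%, where 14.8% of all tested genes did so, and 2 rose, where 14.7% of all tested genes did so. No synthetase gene changed by 1.5-fold or more, against 3.11% of all tested genes. The median log2 fold change was -0.12 for the cytosolic and 0.02 for the mitochondrial genes, beside 0.0012 over all genes tested.

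Cars, the cytosolic cysteinyl-tRNA synthetase, fell the most among cytosolic genes at 40 °C for 6 h. Its level was 94.0, 95.4 and 104 CPM at 37 °C and 64.9, 86.8, 68.7 and 66.3 CPM after 6 h at 40 °C. All 4 heated libraries lay below the controls, although replicate B stood well above the other 3. The log2 fold change was -0.45 ± 0.08 (adjusted p = 0.000568). After 1 h at 40 °C it was at 93.9, 87.1, 89.1 and 84.9 CPM (-0.14 ± 0.05, adjusted p = 0.222), and at 42.5 °C it was at 90.6, 87.4, 97.5 and 94.2 CPM (-0.09 ± 0.05, adjusted p = 0.2). The direct comparison of 42.5 °C with 40 °C for 6 h gave 0.36 ± 0.08 (adjusted p = 0.000928).

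The other cytosolic genes that fell at 40 °C for 6 h had log2 fold changes between -0.23 (Qars) and -0.16 (Dars). Among these genes SARS was lost without replicate A or C at 37 °C or replicate C at 6 h, Vars without replicate A or B at 37 °C or replicate D at 6 h, and Iars without replicate B at 37 °C. Qars had a narrow spread, with 174, 172, 170 and 172 CPM against 206, 199 and 201 CPM at 37 °C, and it was looked at for this reason after its values were seen. Gars was the only member that passed in opposite directions, falling by 0.19 on the log2 scale at 40 °C for 6 h and rising by 0.17 at 42.5 °C. The direct comparison of these groups gave 0.35 ± 0.05 for Gars (adjusted p = 1.41e-05). With all 4 controls its difference from 37 °C was -0.28 (adjusted p = 0.0654) at 40 °C for 6 h and 0.09 (adjusted p = 0.497) at 42.5 °C, and neither passed.

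Tars2, the mitochondrial threonyl-tRNA synthetase, had the largest rise of the family. It stood at 48.6, 44.3 and 43.5 CPM at 37 °C and at 60.3, 68.4, 63.7 and 58.8 CPM after 6 h at 40 °C. The heated libraries were all above the controls, replicate D (52.2 CPM) included. The log2 fold change was 0.46 ± 0.07 (adjusted p = 8.59e-05), against 0.13 ± 0.06 after 1 h (48.4, 48.9, 51.7 and 50.02 CPM, adjusted p = 0.31) and 0.15 ± 0.06 at 42.5 °C (49.9, 51.9, 46.9 and 53.4 CPM, adjusted p = 0.0674). Tars, its cytosolic counterpart, fell by 0.19 on the log2 scale in the same cells (adjusted p = 0.0173), a call that was lost without replicate A or C at 37 °C or replicate D at 40 °C for 6 h. Nars2, the mitochondrial asparaginyl enzyme, rose by 0.23 ± 0.07 (adjusted p = 0.0263), a call lost without replicate A or B at 37 °C or without replicate B or C at 40 °C for 6 h.

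With all 4 controls, 1 gene (Tars2) rose and 6 fell at 40 °C for 6 h, and the calls of Gars, Iars, Mars2, Nars2, Pars2, SARS, Tars and Vars were lost. Over all genes 1122 passed in that fit, against 3091 without replicate D. The differences of Gars (-0.28), SARS (-0.28), Pars2 (-0.32) and Vars (-0.18) were then larger in size than without that library. Those of Nars2 (0.22), Tars (-0.17), Iars (-0.13) and Mars2 (-0.32) were smaller. The 6 h libraries also differed among themselves, since replicate B held the highest value of its group in 13 of the 19 cytosolic genes. In AARS it had 407 CPM against 318 to 327 CPM in the other 3 libraries, and in Yars it had 116 CPM against 75.1 to 82.1 CPM. Without that library 15 genes fell, with AARS, EPRS and Yars added and Pars2 removed from the list. Over all genes 2667 of 10459 passed in that fit, higher or lower. How often replicate B was the highest of its group over all genes was not counted. The part of this library in the result was not tested further, and AARS and Yars were chosen after their values were seen.

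**Figure D4:**
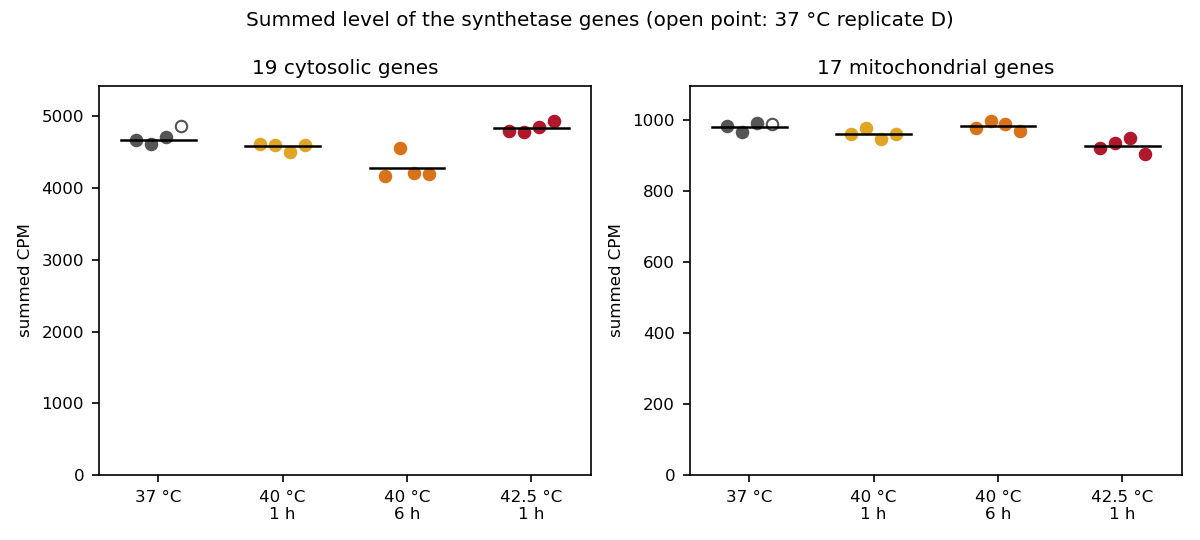
Summed CPM of the 19 cytosolic (left) and the 17 mitochondrial (right) synthetase genes in each library, with vertical axes from 0. Points are libraries, black lines are means of the libraries tested, and open points are replicate D at 37 °C. The cytosolic sum is lowest at 40 °C for 6 h (4172 to 4564) and the mitochondrial sum is lowest at 42.5 °C (904 to 951).

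Summed over all members, the levels of the family moved by little, though such a sum mostly follows the genes with the most reads. The cytosolic genes summed to 4664 ± 47.8 CPM at 37 °C (SD, n = 3), 4581 ± 49.9 after 1 h at 40 °C, 4286 ± 186 after 6 h at 40 °C and 4840 ± 66.2 at 42.5 °C (SD, n = 4 each). All 4 libraries at 40 °C for 6 h lay below the lowest control of 4614 CPM, and so did all 4 after 1 h (4506 to 4609 CPM). All 4 at 42.5 °C lay above controls A to C, while replicate D at 37 °C (4865 CPM) lay among them. The mitochondrial genes summed to 981 ± 12.4, 962 ± 12.7, 984 ± 11.9 and 929 ± 19.9 CPM in the same order. The 42.5 °C libraries lay below every control, and the 40 °C groups overlapped with the controls. Iars2, the only mitochondrial gene that rose at 42.5 °C, alone made up 373 CPM of the mitochondrial sum at 37 °C and 415 CPM at 42.5 °C (means).

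Heating at 40 °C for 1 h changed no synthetase gene in the main test. Of 36 genes, 0 rose and 0 fell, where 1.07% of all tested genes rose, 0.572% fell and 0.334% changed by 1.5-fold or more. At an unadjusted p under 0.05 there were 6 genes, 4 of them lower, beside 14.8% of all tested genes, and DESeq2 called 0 genes. The 3 genes with the smallest p were Hars2, Pars2 (-0.25 ± 0.08, adjusted p = 0.138) and Cars, all of them lower and all without overlap with the controls. In all, 6 of 36 genes lay wholly below the controls, where 6.64% of all tested genes did so. In this comparison libraries of the same letter shared weak deviations (r = 0.15 to 0.23). With the letter as a block 2 of 36 genes fell, Hars2 (-0.22 ± 0.06, adjusted p = 0.0346) and Dars (-0.09 ± 0.03, adjusted p = 0.0469). Over all genes 634 of 10494 passed in that fit, higher or lower.

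The direct comparisons between heated groups measured duration and temperature without the controls. The 2 groups did not overlap in 9 of 36 genes at 6 h against 1 h of 40 °C, where 21.3% of all tested genes did not. Longer heating at 40 °C (6 h against 1 h) raised 1 gene, Tars2, where 9.45% of all tested genes rose, and lowered 8 genes, where 9.04% did so and where 1.28% of all genes changed by 1.5-fold or more. These 8 were Cars, Gars, KARS, Mars2, Qars, Sars2, Tars and Vars, and 5 of them remained without replicate A at 1 h or without replicate A at 6 h, with KARS, Tars and Vars lost in both cases. At least 1 of these 3 calls was lost whichever library was left out, while those of Tars2, Cars, Gars, Mars2, Qars and Sars2 held. At 42.5 °C against 40 °C, both for 1 h, 7 genes were higher (16.4% of all genes) and 10 were lower (19.6%), and 1 of 36, Pars2, differed by 1.5-fold or more (5.27%). The lower genes were 8 mitochondrial genes, among them Aars2, Lars2, Mars2, Nars2, Pars2, Sars2 and Vars2, with Qars and Vars. Leaving out 1 library cost calls in 7 of the 8 cases, among them those of Gars, KARS and Nars2.

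Between 42.5 °C and the longer heating at 40 °C, most cytosolic calls were higher and most mitochondrial calls were lower at 42.5 °C. Of the 36 genes 12 were higher at 42.5 °C (22.5% of all genes) and 8 were lower (24.5%), and 1, Pars2, differed by 1.5-fold or more (8.25%). Of the higher genes 11 were cytosolic (Cars, Dars, EPRS, Farsb, Gars, Iars, KARS, Lars, SARS, Tars and Yars) and 1 was mitochondrial (Iars2). Of the lower genes 7 were mitochondrial, among them Aars2, Lars2, Nars2, Pars2, Tars2 and Vars2, and 1 was cytosolic (Mars). Without 1 library only the calls of Lars and Mars were lost, in 8 of 8 cases at least 1 of them. The median difference was 0.16 for the 19 cytosolic and -0.13 for the 17 mitochondrial genes, beside 0.00073 over all genes tested.

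Against 37 °C, 8 synthetase genes passed the test both at 40 °C for 6 h and at 42.5 °C, where 14.6% of all tested genes did so. Aars2, Hars2, Mars2, Pars2, Qars, Sars2 and Vars fell in both, which is 7 of the 13 genes that fell at 40 °C for 6 h and 7 of the 11 that fell at 42.5 °C, and Gars went both ways. Of all tested genes, 6.04% fell in both and 2.61% went both ways. The 2 comparisons share their control libraries, so these calls are not independent of each other. With all 4 controls Aars2, Hars2, Qars and Sars2 still fell in both, and Mars2 and Gars passed in neither. Pars2 (adjusted p = 0.0613) and Vars (adjusted p = 0.0897) were then lost at 40 °C for 6 h and kept at 42.5 °C. No gene passed in all 3 comparisons with 37 °C, and 10 genes passed in none of the 6 comparisons: AARS, Cars2, Ears2, Fars2, Farsa, Hars, Rars2, Wars, Wars2 and Yars2.

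Genes of the multi-tRNA synthetase complex moved in both directions. Its 8 enzyme genes in the table are Dars, EPRS, Iars, KARS, Lars, Mars, Qars and RARS. At 40 °C for 6 h 3 of them fell (Dars, Iars and Qars), and at 42.5 °C 3 rose (KARS, Lars and RARS) and 2 fell (Mars and Qars). The counts here and below stand beside 14.7% of all tested genes that rose and 14.8% that fell at 40 °C for 6 h, and 20.8% that rose and 22.3% that fell at 42.5 °C. Of the 11 cytosolic genes outside the complex, 5 fell at 40 °C for 6 h, and 2 rose and 1 fell at 42.5 °C. Among the 3 scaffold genes, AIMP2 rose at 40 °C for 6 h (0.29 ± 0.06, adjusted p = 0.0025) and at 42.5 °C (0.15 ± 0.06, adjusted p = 0.0431), Aimp1 rose at 42.5 °C (0.11 ± 0.04, adjusted p = 0.0352), and EEF1E1 fell at 40 °C for 6 h (-0.19 ± 0.07, adjusted p = 0.0426). Replicate D at 37 °C held 94.8 CPM of AIMP2 and 321 CPM of Aimp1, above every heated library, and none of these 4 calls held with all 4 controls, where the values at 42.5 °C were -0.0096 for AIMP2 and -0.03 for Aimp1. DESeq2 did not call AIMP2 at 42.5 °C (adjusted p = 0.0678) or EEF1E1 (adjusted p = 0.0539). The structural classes of the catalytic domain were also mixed, since of 18 class I genes 5 fell at 40 °C for 6 h and 6 fell and 3 rose at 42.5 °C, and of 17 class II genes 8 fell and 2 rose at 40 °C for 6 h and 5 fell and 3 rose at 42.5 °C. In shares, 27.8% of class I and 47.1% of class II genes fell at 40 °C for 6 h, and 33.3% and 29.4% fell at 42.5 °C.

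Of 12 other genes of tRNA charging, Sepsecs passed in all 3 comparisons with 37 °C. It encodes the enzyme of the last step of selenocysteinyl-tRNA synthesis, which starts from serine attached by the cytosolic seryl enzyme. Sepsecs fell by 0.41 on the log2 scale after 1 h at 40 °C (adjusted p = 0.00826), by 0.63 after 6 h at 40 °C (adjusted p = 2.3e-05) and by 0.26 at 42.5 °C (adjusted p = 0.0053). Pstk, the kinase of the step before it, rose by 0.73 ± 0.13 after 6 h at 40 °C (adjusted p = 0.000508). With all 4 controls the calls of Sepsecs after 6 h and at 42.5 °C held, while Sepsecs after 1 h (-0.43, adjusted p = 0.116) and Pstk (0.52, adjusted p = 0.102) did not pass. In all, 1 gene of this list fell after 1 h at 40 °C, 2 rose and 1 fell after 6 h, and 1 rose (Trnt1, which adds the CCA end of tRNAs) and 4 fell at 42.5 °C. These counts of 12 are shares of 8.33% lower after 1 h, beside 0.572% of all tested genes. The shares are 16.7% higher and 8.33% lower after 6 h, and 8.33% higher and 33.3% lower at 42.5 °C. DESeq2 did not call Mtfmt after 6 h (adjusted p = 0.0922) or Dtd2 at 42.5 °C (adjusted p = 0.103). With all 4 controls Mtfmt (adjusted p = 0.69) was lost after 6 h. Dtd2 (adjusted p = 0.1) and Elac2 (adjusted p = 0.154) were lost at 42.5 °C, where Trnt1 and Secisbp2 still passed. Of 7 genes that deliver charged tRNA to the ribosome, the cytosolic EEF1A1, Eef1b2 and Eef1g rose at 42.5 °C by 0.15, 0.20 and 0.10, and the mitochondrial TSFM fell (-0.19 ± 0.05, adjusted p = 0.00498). Replicate D at 37 °C held 15810 CPM of EEF1A1, 1121 of Eef1b2 and 1988 of Eef1g, above every library at 42.5 °C, and with all 4 controls none of these 3 rises passed (0.09, 0.02 and 0.01) while TSFM did. After 6 h at 40 °C, 1 of the 7 rose (Tufm), which did not pass with all 4 controls (adjusted p = 0.586).

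Genes of uncharged tRNA sensing and of the ATF4 response moved unevenly. At 40 °C for 6 h 6 of 13 fell (46.2%, beside 14.8% of all tested genes) and 1 rose (7.69%, beside 14.7%). Atf4 fell by 0.75 on the log2 scale (adjusted p = 2.68e-06), and ASNS, Phgdh, Sesn2, Slc7a11 and Slc7a5 fell with it. The ASNS call (-0.33, adjusted p = 0.0458) was not made by DESeq2 (adjusted p = 0.215), and its groups overlapped, with 49.1 CPM in replicate B at 6 h against 41.9 to 48.5 CPM in the tested controls. The gene that rose was Ddit3 (0.47 ± 0.14, adjusted p = 0.0188). Replicate D at 37 °C held 152 CPM of Slc7a5, below every 6 h library, and 9.16 CPM of Ddit3, above every 6 h library. With all 4 controls Atf4, Phgdh, Sesn2 and Slc7a11 still passed, and ASNS (-0.41, adjusted p = 0.111), Slc7a5 (-0.35, adjusted p = 0.2) and Ddit3 (0.20, adjusted p = 0.584) did not. At 42.5 °C 2 of 13 rose (15.4%, beside 20.8% of all tested genes), of which Chac1, a glutathione-degrading ATF4 target, had a log2 fold change of 2.03 ± 0.25 (adjusted p = 1.56e-05), and 3 fell (23.1%, beside 22.3%), Gcn1, Slc7a5 and Trib3. With all 4 controls only Chac1 and Trib3 of these 5 passed. After 1 h at 40 °C only Sesn2 of this list fell (-0.53 ± 0.12, adjusted p = 0.0332), and it did not pass with all 4 controls (adjusted p = 0.188). Whether these genes and the cytosolic synthetase genes are related in these cells was not tested.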

How the data were processed

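Total RNA of 16 CHO cultures was sequenced as paired-end libraries on an Illumina NextSeq. Per the paper, the authors trimmed the reads and mapped and counted them with CLC Genomics Workbench on the CHOK1GS_HDv1 genome. bcl2fastq is the tool that the submitters' processing notes name. The authors deposited whole-number read counts per gene and library, without normalization. Strandedness, annotation release and the treatment of reads with several mapping places are not given in the sources used here, so overlapping genes could share reads.

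For each comparison, only the libraries of its groups entered a quasi-likelihood F test in edgeR 4.0.16 (R 4.3.3), after filterByExpr with its default minimum count of 10 and TMM scaling, with Benjamini-Hochberg adjustment over all tested genes. All adjusted p values come from this test unless DESeq2 (1.42.0) is named. There were 6 comparisons, all two-sided. The 36 genes, the gene lists and the tests were chosen with earlier results of these data known. Library values are given for members that passed the test with a change of 1.5-fold or more in any comparison, and for the 3 members with the smallest p in each comparison with 37 °C. Other genes singled out were chosen after their values were seen. The paper names the repeats as biological, and at these depths counting error adds to the spread between them. Libraries of the same letter were checked for shared deviations from their group means. Only in 40 °C for 1 h against 37 °C were all 3 pairs over 0.1 (r = 0.15 to 0.23, mean 0.2), so the blocked fit is given beside that result. Gene overlaps come from RefSeq on the CriGri-PICRH-1.0 assembly, matched by symbol for 36 of 36 genes, and 15 of them overlap another annotated gene there. That is another build, so no coordinates are given. On simulated counts of the comparison of 42.5 °C with 37 °C (10417 genes), edgeR recovered 44 and DESeq2 38 of 50 genes changed 1.5-fold, and 29 and 24 of 50 changed 1.2-fold. DESeq2 missed the first criterion of over 80% at 1.5-fold, which was then set at 2-fold for it (46 of 50). The simulation gave every gene the same spread between repeats and changed only 50 genes at each fold. In the data 4510 genes passed in this comparison, so these rates do not give the share of real changes found. No sequence of these genes was used here. The values of 1 gene are counted in the totals and are not reported here.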

Additional observations from a re-analysis of the deposited data

Results flagged for a closer look

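Of 144 groups of 4 libraries (36 genes in 4 groups), 12 held a library far from the other 3, with a gap to its nearest neighbour that took most of the group's range. Chance alone flags about 1 in 20 such groups. In replicate D at 37 °C this was so for EPRS (494.9 CPM, others 584 to 594), Iars (411.1, others 488 to 499), Dars (292.3, others 264 to 268), Hars (113.4, others 97.3 to 98.8), KARS (728.1, others 581 to 593) and Yars2 (57.21, others 44.8 to 46.2). This library was left out of the tests. In the tested libraries it was so for Ears2 in replicate B at 37 °C (10.36, others 12.1 to 12.4), Yars in replicate C at 40 °C for 1 h (112.2, others 98.5 to 100.2) and Mars2 in replicate A at 40 °C for 6 h (26.65, others 20.5 to 21.3). AARS in replicate B at 40 °C for 6 h stood at 406.8 CPM (others 318 to 327). In replicate D at 42.5 °C, Ears2 stood at 15.77 CPM (others 12.02 to 12.6) and AARS at 391.4 CPM (others 357 to 363).

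The effect of 40 °C differed between 1 h and 6 h for 9 genes, by edgeR's direct test of the 2 heated groups. Tars2 was higher at 6 h (0.34 on the log2 scale). The others were lower at 6 h: Sars2 by -0.42, Mars2 by -0.41, Cars by -0.31, Gars by -0.20, Qars by -0.19, Vars by -0.17, Tars by -0.16 and KARS by -0.13. All 4 libraries lay on one side of the other group for Tars2, Sars2, Mars2, Gars, Qars, Vars and KARS, and the groups overlapped for Cars and Tars. Over the whole family the 2 groups did not overlap in 9 of 36 genes, beside 21.3% of all tested genes, and 9.45% of all tested genes passed as higher and 9.04% as lower.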

How the results depend on the processing

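For the synthetase genes called against 37 °C, all directions held in every alternative, and none reversed. DESeq2 size factors, the DESeq2 Wald test, no filter on low counts and a minimum of 10 counts in every library kept all 15 calls at 40 °C for 6 h and all 17 at 42.5 °C. Adding a fold change of at least 1.5 removed the most calls, leaving 2 lower genes at 42.5 °C against 37 °C, 1 lower against each 40 °C group, and 0 in all other counts. Among the other alternatives the choice of controls cost the most calls against 37 °C. With all 4 control libraries, 1 gene was higher and 6 were lower at 40 °C for 6 h (2 and 13 otherwise), 1 was higher at 42.5 °C (6 otherwise), 8 calls were lost in each comparison, and the median of the cytosolic genes at 40 °C for 6 h moved from -0.12 to -0.17. With the replicate block, 2 genes were lower at 40 °C for 1 h (634 genes of all tested passed, against 172). At 40 °C for 6 h the calls of Nars2, Pars2 and Tars were lost, and EPRS and Vars2 (0.16, adjusted p = 0.0448) were added. In that comparison deviations of the same letter correlated at -0.021 to 0.11 (mean 0.036), and the labels do not say what a letter marks. At 42.5 °C no call was lost and EPRS was added. Over all genes, the 40 °C for 1 h comparison passed 107 genes with 1 fit over all 4 groups, 323 without a filter and 4 with all 4 controls. The fit over all 4 groups raised the genes higher at 6 h than at 1 h of 40 °C from 1 to 2. Leaving out 1 library gave 1 to 2 higher genes at 40 °C for 6 h against 37 °C, 1 to 2 higher and 5 to 11 lower genes at 6 h against 1 h, a median of 0.030 to 0.070 for cytosolic genes at 42.5 °C and of -0.092 to -0.039 for mitochondrial genes at 40 °C for 1 h. The share of promoters with a stress motif was planned and not run, since no promoter sequence was used here. The lowest count of a member was 74 reads in a library, so counting error is part of the spread of the least expressed genes.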
